A study of Mus musculus with 18 samples.

Results

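The genotype by cell type interaction asked, for each gene, whether loss of LATS1/2 in PDGFRβ+ cells went with a different change in intestinal stromal cells (IntSCs) than in LECs, the endothelial cells that line lacteals and other lymphatic vessels. The value given for a gene is the log2 difference between LATS1/2 KO and WT in IntSCs minus the same difference in LECs, so a positive value means a change that was more upward, or less downward, in IntSCs. Only genes with at least 10 reads in every one of the 18 libraries were tested. This left 5354 of 23238 gene symbols, which held 84.4% to 88.7% of the reads of each library. The rule favoured genes that both cell types express. Of the 8083 genes that met it in both IntSC groups, 2729 did not meet it in both LEC groups.

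RNA was taken from sorted cells of adult C57BL/6J mice in 4 groups, namely WT IntSCs (n = 6), LATS1/2 KO IntSCs (n = 5), WT LECs (n = 4) and LATS1/2 KO LECs (n = 3). The labels give the WT genotype as PDGFRb+-CreERT2-Tomato+ and add to it, for the KO, both Lats1f/f and Lats2 f/f. Every group therefore carried the Cre and the tomato reporter by label, and the floxed Lats1 and Lats2 alleles were the labelled difference. The study's methods define WT mice in general as Cre-negative littermates with floxed alleles, while its supplement names tomato reporter mice as the controls of these libraries, as the labels do. The Cre is driven by the Pdgfrb promoter and is switched on by tamoxifen, so it acts in stromal and mural cells and not, by design, in LECs. Blood cells and epithelial cells were depleted with anti-CD45 and anti-CD326 beads, and endothelial cells were also depleted with anti-CD31 beads for IntSCs. The study describes both its stromal and its LEC samples as pooled from independent experiments, and which library belonged to which experiment was not given in the sources used here.

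LATS1 and LATS2 are the kinases at the end of the Hippo cascade. They phosphorylate the coactivators YAP and TAZ, which then stay in the cytoplasm or are degraded, and cells without LATS1/2 keep YAP and TAZ in the nucleus, where these bind TEAD factors and raise genes such as Ctgf and Cyr61. PDGFRβ+ stromal cells of the villus lie next to the lacteal and supply it with growth factors, while LECs receive these through VEGFR3, and take up dietary fat.

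The sorted cells matched their labels in stromal fibroblast and LEC genes. The summed level of 14 stromal fibroblast genes was 14080 to 28320 CPM (read counts scaled to a common, TMM-adjusted library size) in IntSC libraries and 813 to 3643 CPM in LEC libraries, and that of 12 LEC genes was 11980 to 18380 CPM in LECs against 377 to 773 CPM in IntSCs. Blood endothelial genes did not set the WT cell types apart. Their sum was 1503 to 3043 CPM in WT IntSCs and 1790 to 2200 CPM in WT LECs. In KO it was 1158 to 1761 CPM in IntSCs and 1858 to 2034 CPM in LECs. Total counts per library ranged from 5361250 to 10549233. Several marker sums also differed between genotypes within a cell type. Leukocyte genes summed to 688 to 1656 CPM in WT LECs and 273 to 399 CPM in KO LECs, with Cd3e and Cd79a at 0 in all LEC libraries. The MHC class II gene H2-Eb1 alone had means of 401 CPM in WT LECs and 97.3 CPM in KO LECs within these sums. Stromal fibroblast genes summed to 3643, 1663, 1573 and 1710 CPM in the 4 WT LEC libraries and to 813, 823 and 1307 CPM in the 3 KO LEC libraries. Paneth cell genes summed to 2.20 to 115 CPM in WT and 283 to 503 CPM in KO IntSCs, and to 1.80 to 39.0 CPM in WT and 91.9 to 976 CPM in KO LECs, but no Paneth, enterocyte, goblet or glial gene of the lists met the read limit. In such bulk samples, fewer cells of a type and less RNA per cell cannot be told apart.

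**Figure D1:**
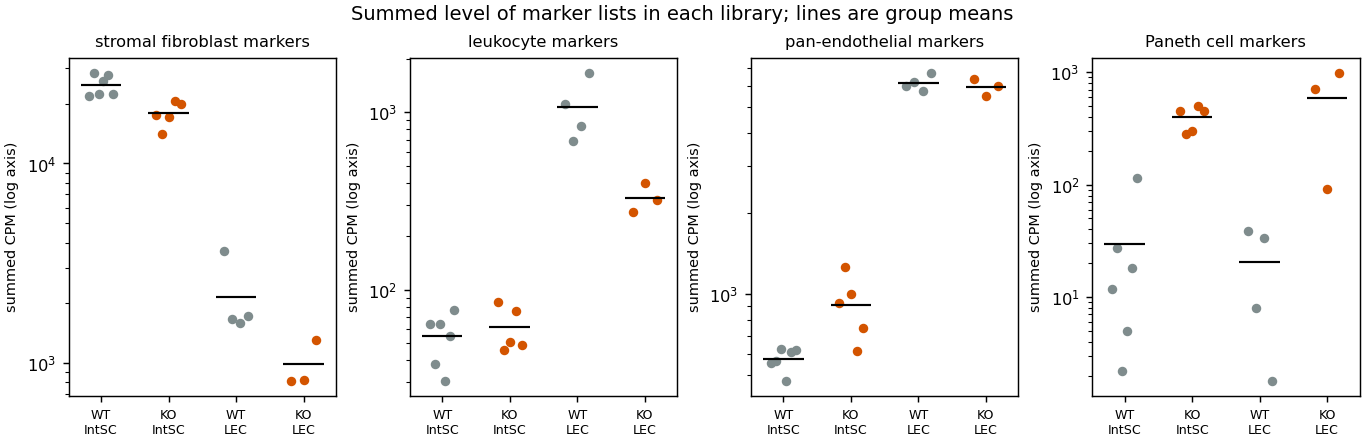
Summed CPM (log axis) of the stromal fibroblast, leukocyte, pan-endothelial and Paneth cell marker lists in each of the 18 libraries by group; each point is a library and each line a group mean. The 4 WT LEC libraries lie above the 3 KO LEC libraries for stromal (1573 to 3643 against 813 to 1307 CPM) and leukocyte markers (688 to 1656 against 273 to 399 CPM).

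A different response of the 2 cell types was found for 56 genes (1.05% of the 5354 tested, edgeR quasi-likelihood test, Benjamini-Hochberg adjusted p under 0.05). The interaction was positive for 34 genes and negative for 22, and 655 genes had an unadjusted p under 0.05. The median interaction over all tested genes was 0.02 on the log2 scale. In the same fit, the genotypes differed at 36 genes in IntSCs (25 higher and 11 lower in KO, 0.672%) and at 107 genes in LECs (43 higher and 64 lower, 2.00%), with 3 genes in common. These counts depend on how the spread is modelled: the biological coefficient of variation was 0.354 among IntSC libraries alone and 0.520 among LEC libraries alone, and when each cell type was fitted by itself 119 genes passed in IntSCs and 22 in LECs. With a spread of its own for each group in limma-voom, 25 interactions passed, all among the 56. Among those that did not pass there were Ctgf, Lmbr1l, Otud5, H2-Q10, Hspa1a and Fos (limma-voom adjusted p = 0.241, 0.239, 0.225, 0.167, 0.104 and 0.0834).

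In this fit, more of the 56 genes passed on the LEC side than on the IntSC side. All 34 genes with a positive interaction had a negative KO minus WT estimate in LECs and 29 a positive estimate in IntSCs, and all 22 genes with a negative interaction had a positive estimate in LECs and a negative one in IntSCs. The interaction is the difference of these estimates, so opposite signs are favoured among genes that pass and are given here as a description. The size of the estimate was larger in LECs for 26 of the 34 and 17 of the 22. Over all tested genes the median size was 0.40 in LECs and 0.25 in IntSCs, so larger LEC estimates are favoured from the outset. The genotype difference passed its own test in LECs alone for 20 positive and 12 negative genes, in IntSCs alone for 6 and 4, in both cell types with opposite signs for 1 and 1, and in neither for 7 and 5. The 3 KO LEC libraries lay entirely above or below the 4 WT LEC libraries for 28 of the 34 and 16 of the 22 genes, against 10.2% of all tested genes. The 5 KO IntSC libraries were separate from the 6 WT IntSC libraries for 8 and 6 genes, against 2.97%. Since LEC groups are smaller, separation is more frequent in them from the outset. Genes that pass a test on these libraries are also favoured to be separate, so these counts are a description.

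**Figure D2:**
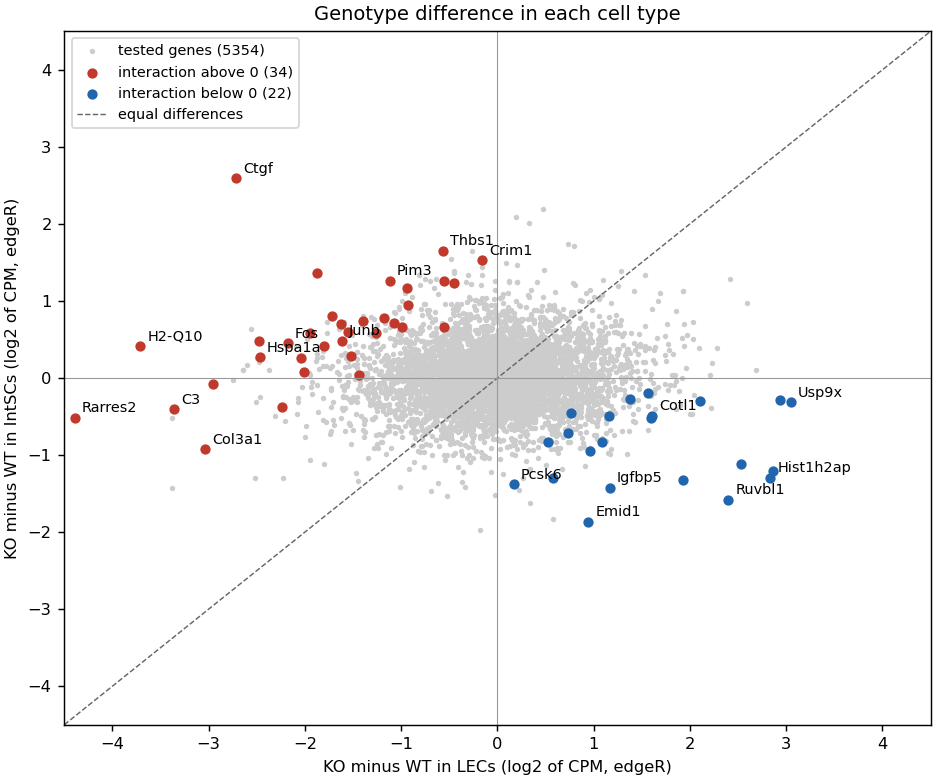
KO minus WT difference in LECs (horizontal axis) against that in IntSCs (vertical axis), both as edgeR log2 values of CPM, for the 5354 tested genes; coloured points are the 34 genes with a positive and the 22 with a negative interaction, and the dashed line marks equal differences. The positive genes lie at the left, below 0 in LECs, and the negative genes at the right and below 0 in IntSCs.

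Igfbp5 and Pim3 were the genes whose genotype difference passed in both cell types with opposite signs. Igfbp5 encodes a secreted protein that binds insulin-like growth factors. Its level was 173 CPM (lowest), 242 CPM (median) and 336 CPM (highest) in WT IntSCs, and 75.2, 57.5, 114, 76.1 and 146 CPM in KO IntSCs. In LECs it was 145, 137, 133 and 137 CPM in WT and 299, 358 and 271 CPM in KO. All KO libraries were thus below WT in IntSCs and above WT in LECs. Igfbp5 fell 2.68-fold in IntSCs (edgeR adjusted p = 0.00197) and rose 2.24-fold in LECs (edgeR adjusted p = 0.0345), an interaction of -2.59 ± 0.38 (log2, SE; edgeR adjusted p = 0.000316).

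Pim3, a serine/threonine kinase that favours cell survival, moved the other way. WT IntSCs had 175 (lowest), 200 (median) and 304 CPM (highest) and KO IntSCs 634, 713, 479, 373 and 424 CPM. WT LECs had 908, 1457, 2012 and 1957 CPM and KO LECs 618, 788 and 783 CPM. The genotypes did not overlap in either cell type. Pim3 rose 2.40-fold in IntSCs (edgeR adjusted p = 0.00268) and fell 2.17-fold in LECs (edgeR adjusted p = 0.0360), an interaction of 2.38 ± 0.36 (edgeR adjusted p = 0.000518). Prelp, a leucine-rich proteoglycan of the matrix, had the same pattern at a smaller size, with 170 ± 25.1 CPM (mean ± SD) in WT and 290 ± 56.4 CPM in KO IntSCs, and 556 ± 84.9 CPM in WT and 246 ± 63.1 CPM in KO LECs. The IntSC difference of Prelp missed the threshold (edgeR adjusted p = 0.0569).

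**Figure D3:**
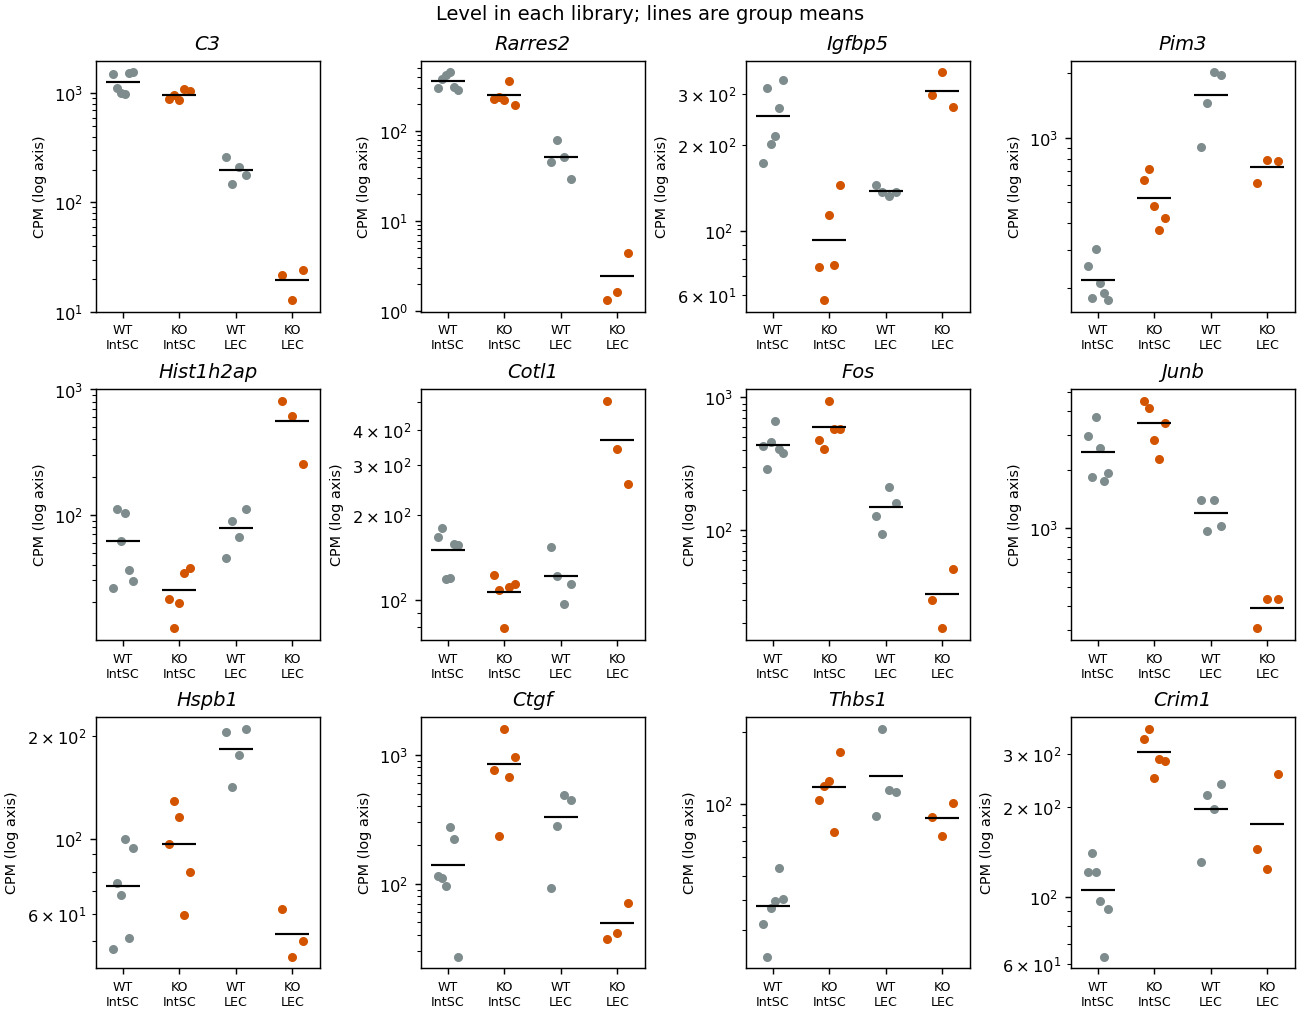
CPM (log axis) of 12 genes with an interaction in each library of the 4 groups; points are libraries and lines group means. Igfbp5 and Pim3 differ in opposite directions in IntSCs and LECs, C3, Rarres2, Fos, Junb and Hspb1 differ mainly in LECs, and Thbs1 and Crim1 mainly in IntSCs.

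The smallest p belonged to C3, the central component of complement, and the next to Rarres2, which encodes the chemoattractant chemerin. C3 was at 262, 147, 209 and 180 CPM in WT LECs and at 21.6, 12.7 and 24.1 CPM in KO LECs, against 987 to 1552 CPM (median 1319) in WT IntSCs and 880, 962, 860, 1086 and 1054 CPM in KO IntSCs. C3 fell 10.3-fold in LECs (edgeR adjusted p = 1.75e-08), with no overlap, while the IntSC groups overlapped (1.32-fold lower, edgeR adjusted p = 0.589). Its interaction was 2.95 ± 0.33 (edgeR adjusted p = 8.07e-06). Rarres2 fell 21.0-fold in LECs, from 45.5, 78.5, 50.7 and 29.0 CPM to 1.30, 1.61 and 4.35 CPM. It stood at the read limit, with 10 reads in its lowest library. The interaction of Rarres2 was 3.88 ± 0.47 (edgeR adjusted p = 1.80e-05).

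Both genes were far higher in IntSCs than in LECs, and the same held for Col3a1 (a fibrillar collagen), Col14a1 (a fibril-associated collagen), Pappa (a protease that cleaves IGF binding proteins) and Pcdh7 (a protocadherin), whose positive interactions also came with lower levels in KO LECs. Col3a1 was at 268, 86.2, 75.3 and 103 CPM in WT LECs and at 16.2 ± 7.62 CPM in KO LECs, all 3 below WT, with 2360 ± 635 CPM in WT and 1246 ± 446 CPM in KO IntSCs. Of the 10 stromal fibroblast markers tested, 5 fell in LECs and none rose, with a median of -1.19 in LECs and -0.51 in IntSCs, and 1 (Col3a1) had an interaction, against 2.00% of all tested genes called in LECs and 1.05% in the interaction. The median interaction of the 10 was 0.80, and 0.12 without the WT LEC library of replicate 1, whose stromal sum of 3643 CPM was the highest of its group. In WT libraries, 11 of the 34 positive genes were higher in IntSCs and 12 higher in LECs, against 12.9% and 15.1% of all tested genes. Of the 22 negative genes, 11 were higher in IntSCs and 5 higher in LECs, so a higher IntSC level was not particular to positive genes. Without WT LEC replicate 1 and the WT IntSC library with the highest Paneth sum, 58 genes passed, 46 of them among the 56. C3 kept an interaction of 2.86 and Rarres2 of 3.87, while Col3a1 (1.55, edgeR adjusted p = 0.0995) and Pappa (2.53, edgeR adjusted p = 0.0628) no longer passed. Of the 18 fits that left out 1 library, Col3a1 did not pass in 13, Pcdh7 in 10, Pappa in 5 and Col14a1 in 4. The part of stromal RNA in these LEC differences was not tested.

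Immediate early genes, which encode short-lived transcription factors and regulators that cells switch on within minutes of a stimulus, include Fos, Junb, Ier3 and Dusp1. These 4 had positive interactions, out of 23 tested members of the list, and none was negative, against 1.05% of all tested genes called. Fos, a subunit of the AP-1 transcription factor, was at 129, 93.7, 213 and 162 CPM in WT LECs and at 29.8, 18.3 and 51.0 CPM in KO LECs. In IntSCs it was at 290 (lowest), 420 (median) and 660 CPM (highest) in WT, and at 480, 411, 948, 578 and 576 CPM in KO. Only the LEC groups were separate, and Fos fell 4.53-fold in LECs (edgeR adjusted p = 0.00168) with an interaction of 2.63 ± 0.44 (edgeR adjusted p = 0.00115).

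Junb, a partner of Fos in AP-1, fell 3.07-fold in LECs, from 1399, 970, 1395 and 1029 CPM to 307, 433 and 432 CPM (edgeR adjusted p = 0.00277), with an interaction of 2.10 ± 0.35. Ier3, an early gene that modulates survival, rose 1.93-fold in IntSCs, where the groups overlapped (edgeR adjusted p = 0.0438). In LECs its difference did not pass, and it was at 607, 630, 701 and 864 CPM in WT against 351, 334 and 418 CPM in KO LECs (edgeR adjusted p = 0.0967). Dusp1, a phosphatase of MAP kinases, had the smallest interaction of the 4 (1.22 ± 0.31, edgeR adjusted p = 0.0461) and lost the call in 13 of the 18 fits that left out a library. Over the 23 members, 17 were above 0 in the interaction, with a median of 0.72 against 0.02 over all tested genes. Their median was 0.47 in IntSCs, where 21 of 23 were above 0 and 1 rose, and -0.55 in LECs, where 6 were above 0 and 2 fell, against 0.672% and 2.00% of all tested genes called.

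Heat shock proteins are chaperones that refold damaged proteins. Of 12 tested, Hspb1, Hspa1a and Hspa1b had positive interactions and none was negative, against 1.05% of all tested genes called in either direction. Hspb1, a small chaperone that binds actin, was at 205, 142, 176 and 210 CPM in WT and 62.3, 45.1 and 50.2 CPM in KO LECs, with 72.4 ± 21.5 CPM in WT and 96.1 ± 27.6 CPM in KO IntSCs. The LEC groups were separate, the IntSC groups were not, and Hspb1 fell 3.49-fold in LECs (edgeR adjusted p = 0.00530). Hspa1a and Hspa1b, nearly identical genes of the inducible HSP70 between which reads may be split, fell 5.53-fold and 5.57-fold in LECs. Over the list the median was 0.72 in the interaction, 0.00 in IntSCs and -0.68 in LECs, where 4 fell (2.00% of all tested genes were called in LECs) and Bag3 and Dnaja1 were above 0. Ppp1r15a, which ends the stress-induced block of translation, was outside the list and had an interaction of 1.80 ± 0.36, with 286 ± 102 CPM in WT and 99.7 ± 19.7 CPM in KO LECs.

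Promoters were examined for the 56 genes, with windows of 300 bases (250 before to 50 after the start) from RefSeq, build GRCm38.p6. A window was matched for 45 of the 56 genes by current or older symbol, and for 44 by current symbol alone (78.6%). Older symbols were added after that share was known. The 5 motifs were chosen with the called genes known, so their counts are descriptions. TATAAA on the gene strand was found for 9 of 28 positive genes (C3, Fos, Junb, H2-Q10, Ppp1r15a, 2410002F23Rik, Ackr3, Apoe and Col3a1) and 1 of 17 negative genes (Anxa2). It was found for 5.28% of the 4320 tested genes with a window. With current symbols alone these were 9 of 28, 1 of 16 and 5.17%. A gene counted if any of its windows held the motif at any position. Counted by window, the share was 8.32% of all 32851 windows. The motif began 33 bases before the start in Fos, 28 in H2-Q10, 8 in Ackr3, 96 in Apoe and 17 in Anxa2. In the other genes named it lay outside the 100 bases before the start. Use of the motif as a promoter element was not tested.

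The other motifs were searched on both strands. The cyclic AMP response element TGACGTCA was in 2 of 28 and 0 of 17 (3.63% of tested genes), the TEAD motif CATTCC in 6 and 4 (13.8%), CCAAT in 12 and 7 (42.5%) and the heat shock pair TTCNNGAA in 1 and 1 (7.99%). The median GC content was 59% for positive genes, 63.7% for negative genes and 62% for tested genes. The 100 bases before the start are shown for the leading immediate early gene, for a stress gene and for a positive and a negative gene outside those lists, with TATAAA or TGACGTCA in capitals. They lie at chr12:85473790-85473889 (Fos, plus strand), chr7:45526269-45526368 (Ppp1r15a, minus strand), chr17:35469989-35470088 (H2-Q10, plus strand) and chr9:69453583-69453682 (Anxa2, plus strand).
Fos: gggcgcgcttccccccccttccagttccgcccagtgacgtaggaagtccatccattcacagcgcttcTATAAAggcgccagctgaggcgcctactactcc
Ppp1r15a: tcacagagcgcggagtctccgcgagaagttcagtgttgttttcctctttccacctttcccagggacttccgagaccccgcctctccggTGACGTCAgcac
H2-Q10: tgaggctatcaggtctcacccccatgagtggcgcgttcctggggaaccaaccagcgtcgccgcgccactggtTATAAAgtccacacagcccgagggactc
Anxa2: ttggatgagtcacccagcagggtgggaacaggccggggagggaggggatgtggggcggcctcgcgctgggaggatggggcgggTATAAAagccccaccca

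Among targets of YAP and TAZ, 2 rose in IntSCs and none passed in LECs. Of 13 tested, Ctgf and Crim1 had positive interactions and none was negative. Over all tested genes, 0.672% were called in IntSCs, 2.00% in LECs and 1.05% in the interaction. Ctgf, a matricellular protein and the classical YAP/TAZ target, had the largest interaction of the 56 genes (5.31 ± 0.94, edgeR adjusted p = 0.00923). With a spread for each group, that interaction did not pass (limma-voom adjusted p = 0.241). Its level was 27.2 (lowest), 112 (median) and 275 CPM (highest) in WT IntSCs and 769, 237, 1600, 669 and 961 CPM in KO IntSCs. In LECs it was 92.5, 280, 491 and 445 CPM in WT and 37.1, 41.6 and 70.3 CPM in KO. The second KO IntSC library overlapped WT, and all KO LEC libraries were below WT. Ctgf rose 6.02-fold in IntSCs (edgeR adjusted p = 0.0332), and was 6.58-fold lower in KO LECs, which missed the threshold (edgeR adjusted p = 0.0665).

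Crim1, a membrane protein that binds BMPs, rose 2.88-fold in IntSCs, from 106 ± 27.4 to 305 ± 45.8 CPM (edgeR adjusted p = 0.00132), and overlapped in LECs (196 ± 46.8 CPM in WT and 176 ± 72.3 CPM in KO). Thbs1, an extracellular glycoprotein that limits angiogenesis, had the same pattern and rose 3.14-fold in IntSCs, from 37.6 ± 10.3 to 118 ± 32.4 CPM (edgeR adjusted p = 0.00197), with 131 ± 51.6 CPM in WT and 87.9 ± 13.9 CPM in KO LECs. Cyr61, a relative of Ctgf, had an interaction of 2.16 ± 0.71 that did not pass (edgeR adjusted p = 0.167). Over the 13 members, 9 were above 0, with medians of 0.79 in the interaction, 0.58 in IntSCs and -0.29 in LECs.

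The deleted genes gave no check of the labels. QuantSeq reads the 3′ end, and a transcript without its floxed exons can still be counted there. Lats1 was at 0 to 30.5 CPM in WT and 13.3 to 22.1 CPM in KO IntSCs and missed the read limit. Lats2, itself a YAP/TAZ target, was at 43.6 to 115 CPM in WT and 81.3 to 136 CPM in KO IntSCs, with an interaction of 1.37 ± 0.58 (edgeR adjusted p = 0.305). None of the 11 Hippo core genes tested, Yap1 among them, had an interaction, which is near the 1.05% over all tested genes. Their median was 0.07.

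The largest negative interactions were those of the histone genes Hist1h2ap and Hist1h2ao. Replication-dependent histone mRNAs build up in S phase and normally lack a poly(A) tail. Hist1h2ap was at 45.4, 90.0, 67.0 and 112 CPM in WT LECs and at 816, 613 and 252 CPM in KO LECs, with 26.0 (lowest), 49.1 (median) and 111 CPM (highest) in WT IntSCs and 21.3, 12.4, 19.9, 34.2 and 37.4 CPM in KO IntSCs. The LEC groups were separate and the IntSC groups overlapped. Hist1h2ap rose 7.13-fold in LECs (edgeR adjusted p = 0.00285), with an interaction of -4.13 ± 0.63 (edgeR adjusted p = 0.00101). Hist1h2ao rose 7.25-fold. Both encode H2A, are close copies, and may share reads, so they are not separate evidence. Of 68 histone symbols only 5 met the read limit. Hist2h2aa1 and Hist2h2aa2, also among the 5, had identical values (-1.21, not past the threshold), which are the median of the list. None of the 14 cell cycle genes tested had an interaction (median -0.25), which is near the 1.05% over all tested genes. Ccnd1, cyclin D1, fell in IntSCs (-1.97, edgeR adjusted p = 0.00597), with an interaction of -1.79 that did not pass (edgeR adjusted p = 0.127).

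Cotl1, which binds filamentous actin, was the actin gene with an interaction, out of 46 tested. It was at 154, 121, 96.2 and 114 CPM in WT LECs and 508, 343 and 257 CPM in KO LECs, against 150 ± 25.3 CPM in WT and 107 ± 16.3 CPM in KO IntSCs. Cotl1 rose 3.04-fold in LECs (edgeR adjusted p = 0.00184), where all KO libraries were above WT. The median of the 46 was -0.34 in the interaction, 0.01 in IntSCs and 0.33 in LECs, where 3 rose and none fell, against 2.00% of all tested genes called. The share of the list with an interaction, 2.17%, was near the 1.05% over all tested genes.

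Among 30 tested genes of collagens and basement membrane, Col3a1 had a positive and Emilin1 a negative interaction. Emilin1, an elastic fibre glycoprotein that anchors lymphatic vessels to the matrix, was at 93.3, 216, 98.6 and 121 CPM in WT and 270, 265 and 306 CPM in KO LECs, and at 218 ± 51.7 CPM in WT and 123 ± 35.2 CPM in KO IntSCs. KO was entirely above WT in LECs and overlapped it in IntSCs. Neither difference passed by itself (edgeR adjusted p = 0.0583 in LECs and 0.137 in IntSCs), while the interaction did (-1.91 ± 0.39, edgeR adjusted p = 0.00923). Of the list, 4 rose and 4 fell in LECs, and 1 rose and 1 fell in IntSCs, against 2.00% and 0.672% of all tested genes called.

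Further genes changed on the IntSC side. Pcsk6, a proprotein convertase, fell 2.59-fold in IntSCs, from 276 ± 59.9 to 106 ± 31.4 CPM (edgeR adjusted p = 0.00166), and stood at 760 ± 198 and 856 ± 89.1 CPM in LECs. Lgals3bp, a secreted glycoprotein that binds galectins, fell 2.47-fold in IntSCs (edgeR adjusted p = 0.00642). Emid1, an EMI domain matrix protein, fell 3.64-fold (edgeR adjusted p = 0.0158) and Mgll, which breaks down monoacylglycerol, fell 1.77-fold (edgeR adjusted p = 0.0438). Ackr3, a scavenging receptor for CXCL12 and adrenomedullin, rose 2.36-fold in IntSCs, from 22.8 to 43.1 CPM in WT to 49.8 to 102 CPM in KO, and was at 457 ± 104 and 334 ± 78.2 CPM in LECs. The interactions of Ackr3 and of Mgll each did not pass in 5 of the 18 fits that left out a library. Cds2, an enzyme of phosphoinositide synthesis, rose 2.39-fold in IntSCs (edgeR adjusted p = 0.00677).

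Other leading genes changed on the LEC side. Otud5, a deubiquitinase, was at 119, 169, 117 and 151 CPM in WT LECs and 39.0, 23.9 and 25.6 CPM in KO LECs, and fell 4.71-fold (edgeR adjusted p = 0.000197), while both IntSC groups lay between 91.4 and 224 CPM. Slc3a2, the heavy chain of large neutral amino acid transporters, fell 2.93-fold in LECs, from 226, 163, 406 and 407 CPM to 54.5, 124 and 130 CPM (edgeR adjusted p = 0.0174). Lmbr1l, a membrane receptor that dampens Wnt signalling in lymphocytes, fell 3.66-fold in LECs (edgeR adjusted p = 0.0360) and was at 31.0 to 63.9 CPM in WT against 57.9 to 197 CPM in KO IntSCs (edgeR adjusted p = 0.0663). For these 3 genes all KO LEC libraries were below all WT LEC libraries.

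In the opposite direction, Sh3pxd2b, a scaffold of podosomes, rose 3.01-fold in LECs, from 140, 202, 127 and 79.2 CPM to 489, 313 and 437 CPM (edgeR adjusted p = 0.0115). Man1c1, a mannosidase of the Golgi that trims N-glycans, rose 4.29-fold in LECs, from 21.1 ± 6.42 CPM to 97.1, 74.4 and 101 CPM (edgeR adjusted p = 0.00534). Epm2aip1, which binds the glycogen phosphatase laforin, rose 5.78-fold from 4.87 to 10.8 CPM in WT LECs to 19.0 to 67.1 CPM in KO LECs (edgeR adjusted p = 0.0302). The KO LEC libraries were above WT for all 3 genes. Ap1s2, a subunit of the AP-1 clathrin adaptor, had an interaction of -3.25 although its LEC groups overlapped (4.51 to 32.2 CPM in WT and 31.7 to 116 CPM in KO, edgeR adjusted p = 0.0509). Cyp4b1, a cytochrome P450 that was at 1119 to 1975 CPM in WT LECs and 303 to 609 CPM in KO LECs, had an interaction of 2.52 that no longer passed in 10 of the 18 fits without a library.

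H2-Eb1, an MHC class II chain, was at 415, 261, 220 and 710 CPM in WT and 81.7, 92.6 and 118 CPM in KO LECs, and at 11.4 to 17.7 CPM in WT and 7.72 to 25.6 CPM in KO IntSCs. It fell 4.12-fold in LECs (edgeR adjusted p = 0.00532), with an interaction of 2.31, and of 1.86 (edgeR adjusted p = 0.0600) without WT LEC replicate 4. The summed leukocyte list, of which H2-Eb1 is a member, was lower in the same KO LEC libraries, and its part in the result was not tested. H2-Eb1 had a mean of 401 CPM within a mean sum of 1075 CPM in WT LECs. In KO LECs these were 97.3 and 330 CPM, so the sum is not separate from the gene. H2-Q10, a class I gene with close relatives among which reads may be split, fell 13.1-fold in LECs, from 14.9, 48.2, 152 and 21.1 CPM to 4.03, 3.41 and 6.04 CPM, with 20.8 to 50.1 CPM in IntSCs. None of 21 class I and interferon genes of the list, which does not hold H2-Q10, had an interaction, against 1.05% of all tested genes. In LECs 1 of them (Bst2, a tetherin of enveloped viruses) fell, against 2.00% called over all tested genes, and their medians were -0.43 in IntSCs and -0.55 in LECs. Ruvbl1, an ATPase of chromatin remodelling complexes, had an interaction of -3.98 ± 0.79 that rested on KO LEC replicate 1: its levels were 71.7, 17.2 and 9.31 CPM in the KO LECs, and without that library the interaction was -2.69 and no longer passed.

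The 8 pan-endothelial genes tested had a median interaction of 1.03 with none called, from medians of 0.86 in IntSCs and -0.35 in LECs. Their sum was 476 to 624 CPM in WT IntSCs and 612 to 1261 CPM in KO IntSCs, and 5499 to 6661 CPM in LECs. Among housekeeping genes, none of 83 cytosolic ribosomal protein genes (median 0.16), 78 nuclear oxidative phosphorylation genes (-0.23), 39 proteasome genes (-0.07), 50 translation factors (0.18) or 46 splicing factors (0.14) had an interaction. The same count of 0 held for 17 genes of protein folding in the endoplasmic reticulum (-0.28), 12 junction genes (0.52), 6 genes of the VEGF and angiopoietin axis (0.52), 4 LEC markers (0.40), 4 blood endothelial markers (0.35), 4 smooth muscle markers (0.62) and 2 pericyte markers (-0.02). Over all tested genes 1.05% were called, so a count of 0 is near that share for lists of these sizes. Among 6 tested genes of the IGF list, which are Igfbp3, Igfbp4, Igfbp5, Igfbp7 and the receptors Igf1r and Igf2r, Igfbp5 was the member with an interaction (median 0.32). Some of these medians rested on a library. Without WT LEC replicate 1 the median was -0.20 for blood endothelial markers and 0.23 for smooth muscle markers, and without WT LEC replicate 4 it was 0.16 for junction proteins.

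**Figure D4:**
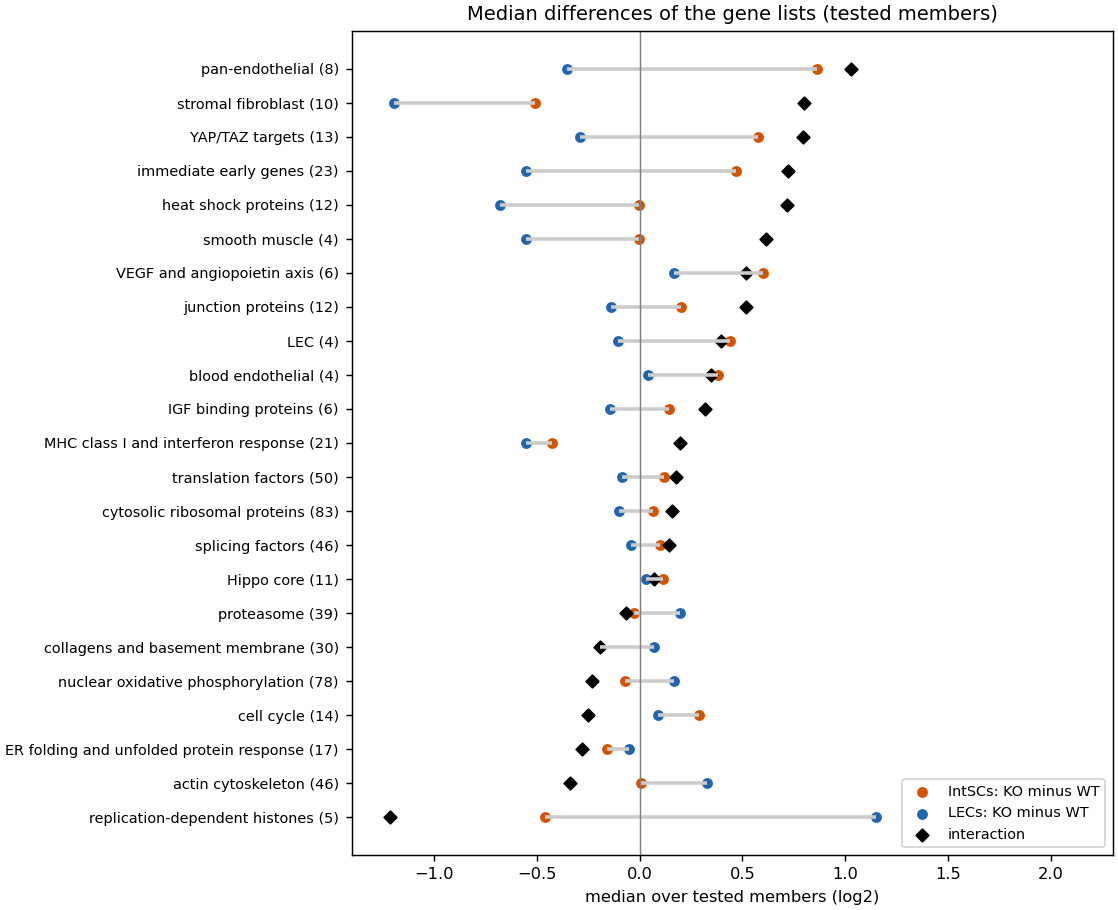
Median KO minus WT difference in IntSCs (orange) and LECs (blue) and median interaction (black diamonds), in log2, over the tested members of each gene list with at least 4 tested members (number in brackets). Pan-endothelial, stromal, YAP/TAZ, immediate early and heat shock genes have medians of 0.72 to 1.03, and the 5 histone genes lie lowest at -1.21. That median is the identical value of Hist2h2aa1 and Hist2h2aa2.

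The read limit kept the growth factors of the study out of the test. Vegfc, the ligand of VEGFR3, was at 0.663 to 15.2 CPM in WT and 17.7 to 115 CPM in KO IntSCs, while it was 0 to 3.20 CPM in WT LECs and 0 in all 3 KO LEC libraries. Wisp2 and Bdnf were at 12.1 to 36.0 and 75.2 to 166 CPM in KO IntSCs, and both were at 0 in all KO LEC libraries. In WT IntSCs, Wisp2 was at 0.177 CPM in replicate 4 and at 0 in the others. Flt4, which encodes VEGFR3, was at 1382, 1413, 1207 and 1406 CPM in WT and 1162, 1065 and 1188 CPM in KO LECs, and Lyve1, a hyaluronan receptor of lymphatic endothelium, at 1192 to 2369 and 2552 to 3329 CPM. Their IntSC counts fell below the limit. Prox1, the transcription factor that sets lymphatic identity, was at 31.1 to 83.8 CPM in WT and 32.4 to 107 CPM in KO LECs and at most 0.179 CPM in IntSCs. Amotl2, which holds YAP in the cytoplasm and is also a YAP target, was at 47.1 ± 18.4 CPM in WT and 150.1 to 239.9 CPM in KO IntSCs, and at 9.80 to 45.7 CPM in WT and 0.390, 5.62 and 46.2 CPM in KO LECs. Angpt2, a ligand of the TIE2 receptor, was at 0.825 to 8.18 CPM in WT and 7.52 to 31.5 CPM in KO IntSCs, and at 47.9 to 167 CPM in WT and 76.9, 329.9 and 346 CPM in KO LECs. Pdgfrb, whose promoter drives the Cre, was at 226 to 706 CPM in WT and 731 to 1241 CPM in KO IntSCs, and at 64.8, 27.9, 12.1 and 1.53 CPM in WT LECs.

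With a limit on expression in only part of the libraries (filterByExpr), 14015 genes were tested and 238 interactions passed, of which 178 were genes outside the 5354. Of these, 174 had fewer than 10 reads in a KO LEC library. At the limit itself, 46 genes had 10 reads as their lowest count and 50 genes had 9. The most highly counted of the former were Hira, Rarres2 and Vcan, and of the latter Clmp, Gadd45b and Mfap4. Hira and Vcan had interactions of 0.50 and -1.30 that did not pass, and in Clmp, Gadd45b and Mfap4 the lowest value was 1.17 CPM in KO LECs.

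**Figure D5:**
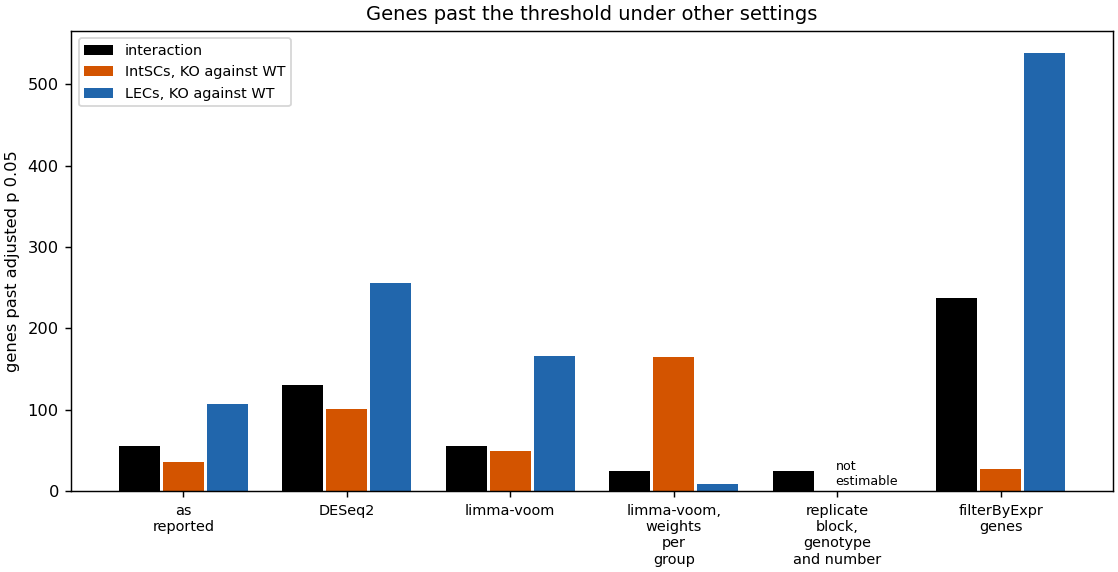
Number of genes past an adjusted p of 0.05 for the interaction (black), KO against WT in IntSCs (orange) and KO against WT in LECs (blue) as reported and under 5 other settings. The interaction count is 56 as reported, 25 with a spread for each group or with a replicate block, and 238 when the read limit is relaxed.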

How the data were processed

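The authors deposited 18 tables of raw counts, whole reads per gene symbol from QuantSeq 3′ libraries sequenced on a NextSeq 500. The submitters' processing notes name mm10, Bowtie2 and edgeR, and the study's methods name TopHat and Cufflinks for stromal libraries; the counting program and annotation were not given in the sources used here. Counts on the 35 symbols with more than 1 row were summed. Groups and replicate numbers came from sample titles. The labels do not say that replicates were separate animals. The study's supplement gives mice per group in ranges that match the libraries per group, without tying a library to a mouse, so p-values measure the spread between these samples, which may in part be technical. Rn45s, the ribosomal precursor, took 7.02% to 24.4% of reads.

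In R 4.3.3, edgeR 4.0.16 (TMM factors, robust glmQLFit, glmQLFTest, 1 mean per group, no covariate) was fitted to all 18 libraries for genes with at least 10 reads in every library, with Benjamini-Hochberg adjustment over all 5354 genes. CPM were computed from TMM-adjusted library sizes. The SE of an interaction was derived from its test, as the size of the log2 value divided by the square root of the quasi-likelihood F. DESeq2 1.42.0 and limma 3.58.1 were alternatives, and the scripts were tested on simulated data. A count of 3 equals 2.84e-05% to 5.60e-05% of a library, which covers counting error only. Deviations of same-numbered IntSC and LEC libraries of the same genotype correlated at 0.0769 or less, and at 0.0989 or less across genotypes, so the numbers were not used as pairs.

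Genes named are the 12 with the smallest p of each sign, a panel of study genes, up to 4 per list, genes with opposite differences and those next to the read limit; other genes are named where a count or list turned on them, after their values were seen. The result of 1 gene with an interaction is not reported here. The genes tested and the lists were chosen with earlier results of these data known. Alternatives covered scaling, filters, depth, tool, replicate block, Xist and each library.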

Additional observations from a re-analysis of the deposited data

Results flagged for a closer look

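The interaction itself compares the genotype difference in 2 cell types, and a test of that difference passed for 56 genes (edgeR quasi-likelihood test). Values are given for 55 of them. Positive values, in log2, were 5.31 for Ctgf, 4.13 for H2-Q10, 3.88 for Rarres2, 3.23 for Lmbr1l, 2.96 for Hspa1b, 2.95 for C3, 2.87 for 2410002F23Rik, 2.73 for Hspa1a, 2.63 for Fos, 2.53 for Pappa, 2.52 for Cyp4b1, 2.38 for Pim3, 2.31 for H2-Eb1, 2.22 for Thbs1 and 2.21 for Hspb1. They were 2.14 for Slc3a2 and Xrn2, 2.11 for Col3a1 and Samhd1, 2.10 for Junb, 2.08 for Pcdh7, 1.95 for Prelp, 1.87 for Ier3, 1.86 for Otud5, 1.84 for Apoe, 1.81 for Cds2, 1.80 for Ppp1r15a, 1.79 for Ifrd1, 1.69 for Crim1 and Ackr3, 1.65 for Slc9a3r2, 1.47 for Col14a1 and 1.22 for Dusp1.

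Negative values were -4.13 for Hist1h2ap, -4.06 for Hist1h2ao, -3.98 for Ruvbl1, -3.65 for Epm2aip1, -3.36 for Usp9x, -3.25 for Ap1s2, -3.22 for Slc41a3, -2.81 for Emid1, -2.59 for Igfbp5, -2.40 for Man1c1, -2.11 for Sh3pxd2b and -2.09 for Cotl1. They were -1.91 for Emilin1 and Enho, -1.88 for Lgals3bp, -1.76 for Pdlim1, -1.66 for Serp1, -1.65 for Erp29, -1.55 for Pcsk6, -1.45 for Anxa2, -1.36 for Mgll and -1.23 for Serf2.

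A library far from the others of its group was found in 23 of 273 groups of 4 to 6 values examined by Dixon's test, where chance gives about 1 in 20, or 14. WT IntSC replicate 6 stood apart 5 times, in the summed smooth muscle (4772 CPM), Paneth (115 CPM), enterocyte (146 CPM) and goblet markers (70.8 CPM) and in H2-Ab1 (28.1 CPM). WT LEC replicate 1 stood apart in stromal markers (3643 CPM), Col3a1 (268 CPM) and Erp29 (63.1 CPM). KO IntSC replicate 4 stood apart in Rarres2 (362 CPM), Pdlim1 (261 CPM), Flt4 (22.8 CPM) and Lyve1 (17.0 CPM). The others were Cds2 (92.3 CPM), Enho (36.9 CPM) and Wisp2 (0.177 CPM, 1 read) in WT IntSC replicate 4, Lyve1 (21.9 CPM) in WT IntSC replicate 3, Yap1 (213 CPM) in WT IntSC replicate 2 and Slc41a3 (40.9 CPM) in KO IntSC replicate 1. In WT LECs they were Hspa1a (287 CPM) and Bdnf (0.541 CPM) in replicate 4, Flt4 (1207 CPM) in replicate 3, and Vegfc (3.20 CPM) and the total of 7464241 counts in replicate 2.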

How the results depend on the processing

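The interaction count was 56 as reported. It was 131 with DESeq2 (which gave no adjusted p for 113 genes), 238 with filterByExpr, 214 with no filter beyond 1 read, 25 with limma-voom weights per group and 25 with a replicate block of genotype and number, which kept 22 of the 56. The share of positive calls was 60.7% as reported and 83.6% with filterByExpr (199 of 238). The IntSC count of 36 was 101 with DESeq2, 165 with weights per group and 119 in IntSC libraries alone. The LEC count of 107 was 256 with DESeq2, 538 with filterByExpr, 432 with no filter, 166 with limma-voom, 9 with weights per group and 22 in LEC libraries alone (the fits of each cell type alone were chosen after seeing the data). The cause of these shifts was not tested. The other alternatives left all 3 counts within 1.5 times.

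Leaving out each library gave 42 (without KO IntSC replicate 5) to 95 (without KO LEC replicate 3) interactions, 19 (without KO IntSC replicate 3) to 47 differences in IntSCs and 77 to 129 in LECs. The IntSC count was 21 without WT IntSC replicate 1 or KO IntSC replicate 1, and 22 without WT IntSC replicate 4 or KO IntSC replicate 2 or 5. Of the 56 genes, 33 passed in all 18 such fits, 13 passed in every alternative, and 0 changed sign in any. Hira, which had not passed, went from 0.50 to -0.0755 without KO LEC replicate 1 and to 1.89 without KO LEC replicate 3.

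Replicate numbers are shared between groups, but nothing in the labels says what a number means. Deviations of same-numbered WT IntSC and LEC libraries correlated at 0.0397 on average (0.0120 to 0.0769), against -0.00783 for other numbers. Same-numbered KO libraries were at -0.0172 (-0.0492 to 0.0206), against 0.00415. Correlations this low cannot by themselves show whether same-numbered libraries came from the same mouse. Xist, a female-specific transcript, was at 1505, 1433, 20.3 and 1.595 CPM in WT IntSC replicates 1 to 4. In WT LECs it was at 475, 1377, 1.485 and 2.975 CPM. In KO replicates 1 to 3 it was at 2010, 1670 and 11.4 CPM in IntSCs and 517, 0.100 and 0.725 CPM in LECs. The KO libraries of number 2 thus differed in sex by Xist and did not come from the same mouse. The replicate block of genotype and number joined these libraries, so its count is not that of a fit with known pairs. A replicate block of number alone gave 51 interactions, 44 of them among the 56. Genes with fewer than 10 reads in any library, Vegfc, Flt4 and Lyve1 among them, were not tested for an interaction as reported.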
